A study of Mus musculus with 6 samples.

Results

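Notch signalling lets neighbouring cells inform each other through proteins that span their membranes. A ligand of the Delta-like or Jagged family on a cell binds a Notch receptor on the next, the receptor is cut by ADAM proteases and gamma-secretase, and its released intracellular part joins the DNA-binding protein RBPJ to activate genes such as those of the Hes and Hey repressors. In mouse embryonic stem cells the pathway is known mainly for promoting neural commitment once self-renewal ends. The genes described here were the rows of the count table that map to Notch1, Notch2, Notch3, Dll1, Dll3, Jag1, Jag2, Rbpj, Hes1 and Hey1, chosen by symbol. They are 10 of 55401 genes in the table, and all 10 had enough counts to be tested.

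The RNA came from V6.5, a line of mouse embryonic stem cells. The wild-type group (WT) was labelled WT and the other group was V6.5 with the genotype Cdh1-/- (Cdh1 knockout). Cdh1 encodes E-cadherin, the adhesion protein that joins stem cells and binds beta-catenin. Each genotype had 3 libraries, lettered A, B and C. The labels do not say whether the knockout cells were a single clone, how Cdh1 was disrupted, or whether libraries came from separate cultures, so p-values measure the spread between these libraries, which may be technical.

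Library totals lay between 18020719 and 23381942 counts. Knockout replicate A differed most from its own group, with a root mean square difference in log2 CPM (counts scaled to the effective library total) of 0.319 and 0.331 from knockout replicates B and C, against 0.228 to 0.261 for the other pairs within a genotype. Cdh1 itself was at 537 CPM to 571 CPM in WT and at 166 CPM to 183 CPM in the knockout, a remaining level of 30.9%. The 7 listed stem cell markers, Pou5f1 and Nanog among them, summed to 2757 CPM to 3152 CPM in WT. In the knockout they summed to 2655 CPM to 3515 CPM. Of the 7, 1 had an unadjusted p under 0.05 in edgeR's test, against 26.7% of all tested genes. They were called in 0, 0 and 0 cases by edgeR, DESeq2 and limma-voom, against 13.3% of all tested genes by edgeR.

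Among the 10 Notch genes, the ligand gene Jag1 fell and the target gene Hes1 rose in the Cdh1 knockout, by edgeR's quasi-likelihood test at an adjusted p under 0.05. The other 8 genes, among them the receptors Notch1, Notch2 and Notch3, were not called. In these terms 2 of 10 genes were called, where 13.3% of all 17325 tested genes were called. For each direction, 1 of 10 rose, against 7.6% of tested genes, and 1 of 10 fell, against 5.71%. The median log2 fold change of the 10 genes was 0.02, and that of all tested genes was -0.01. In whole cultures, a change in RNA per cell and a change in the number of cells that make it cannot be told apart.

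**Figure D1:**
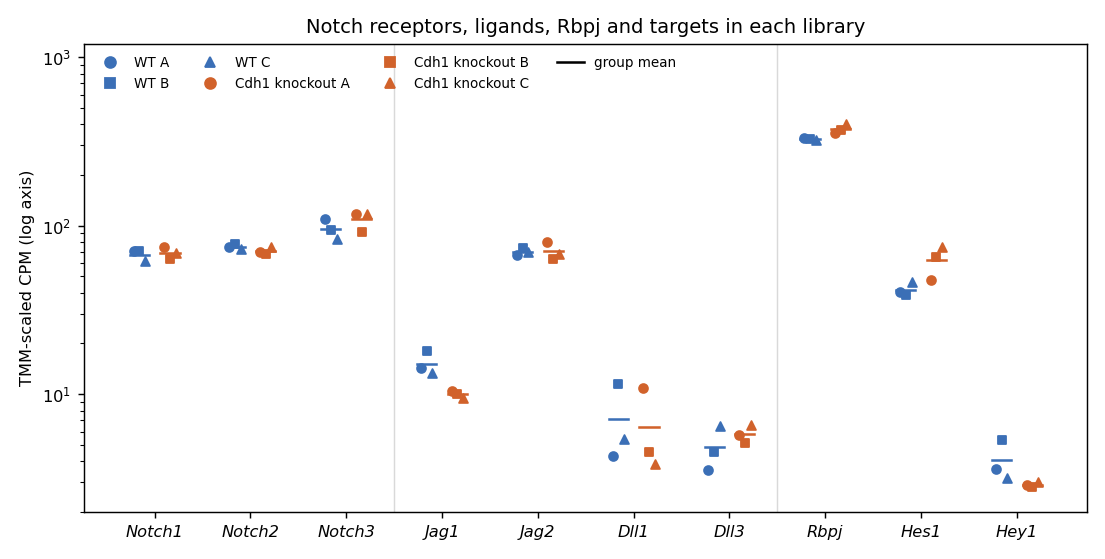
TMM-scaled CPM (log axis) of the 10 Notch genes in each library, with WT in blue, Cdh1 knockout in orange, a marker shape for each replicate letter and a line at each group mean. The knockout libraries lie below all WT libraries for Jag1 and Hey1 and above all of them for Hes1 and Rbpj, and WT B and knockout A lie high for Dll1.

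The receptors are single-pass membrane proteins that become transcriptional activators after cleavage. Notch1 (ENSMUSG00000026923.15, chromosome 2, 26457903 to 26503822, minus strand of GRCm38) was at 70.4, 70.6 and 61.5 CPM in WT A, B and C, and at 75.1, 63.5 and 69.3 CPM in the knockout replicates. The ranges overlapped, and the log2 fold change was 0.04 with a 95% interval from -0.17 to 0.25 (adjusted p 0.863). Exons of 0610009E02Rik and Gm13568 on the opposite strand cover 14.5% of the Notch1 exon bases, and whether counting used strand is not given in the sources used here, so part of its counts could belong to them.

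Notch2 (ENSMUSG00000027878.11, chromosome 3, 98013538 to 98150361, plus strand) had the least spread of the receptors. Its levels were 74.4, 77.5 and 73.2 CPM in WT and 69.9, 68.0 and 75.0 CPM in the knockout, where knockout C lay inside the WT range. On the log2 scale the difference was -0.08, with an interval from -0.27 to 0.11 (adjusted p 0.622). Gm42820 on the same strand covers 5.15% of its exon bases.

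Notch3 (ENSMUSG00000038146.8, chromosome 17, 32120820 to 32166852, minus strand) had the highest level per kb of exon among the receptors. It stood at 110, 93.9 and 83.1 CPM in WT and at 118, 92.3 and 118 CPM in the knockout, with knockout A and C above every WT library and knockout B between WT B and WT C. The log2 fold change of 0.19 had an interval from -0.06 to 0.45 (adjusted p 0.338), so the difference was not larger than the spread between libraries. Gm17276 on the opposite strand covers 6.09% of its exon bases. For all 3 receptors, the intervals leave out a 2-fold difference in either direction.

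Levels of different genes are compared here per kilobase of exon length, since longer transcripts collect more reads. With Notch4, the remaining receptor gene, included, Notch3 held 38.8 ± 1.87% of the summed receptor level in WT and 42.5 ± 3.47% in the knockout (SD, n = 3 each). Notch1 held 23.2 ± 1.46% and 22.8 ± 1.45%, Notch2 23.4 ± 2.17% and 21.1 ± 0.610%, and Notch4 14.6 ± 2.56% and 13.5 ± 3.73%, in WT and knockout in that order. The summed level was 30.7 ± 2.94 CPM per kb in WT and 32.0 ± 2.09 CPM per kb in the knockout, a difference within the spread of either group. The ranges of the share overlapped between genotypes for each of the 4 receptors.

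**Figure D2:**
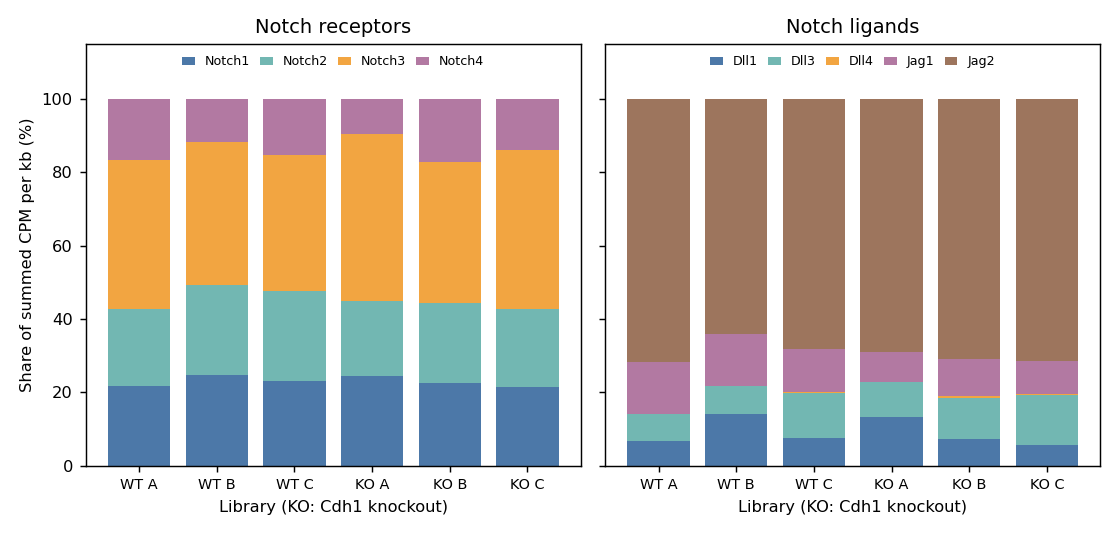
Share (%) of each gene in the summed CPM per kb of the Notch receptors (left) and of the Notch ligands (right) in each library. Notch3 holds the largest receptor share and Jag2 the largest ligand share in all 6 libraries, and the Jag1 share is 11.8% to 14.1% in WT and 8.16% to 10.2% in the Cdh1 knockout.

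Among the ligand genes, Jag1 was the one called. Jag1 (ENSMUSG00000027276.7, chromosome 2, 137081456 to 137116644, minus strand) encodes Jagged1, a membrane ligand of the Notch receptors. Its levels were 14.2, 17.9 and 13.3 CPM in WT A, B and C, and 10.4, 10 and 9.49 CPM in the knockout replicates. All knockout libraries lay below all WT libraries. The mean fell from 15.2 ± 2.45 CPM to 9.98 ± 0.481 CPM (SD, n = 3 each). In edgeR's test the log2 fold change was -0.60, the standard error 0.16 and the adjusted p 0.0217. The knockout level was 0.659 times the WT level, with a 95% interval from 0.519 to 0.836.

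With 1 library removed at a time, Jag1 missed the threshold in 4 of 6 fits. Leaving out WT A gave an adjusted p of 0.0538, leaving out WT B 0.123, knockout B 0.0685 and knockout C 0.0794, while the log2 fold change stayed between -0.68 and -0.46 over all 6. WT replicate B, the highest library, moved the value most. Some genes listed as markers of other cell types were called lower beside Jag1, where 5.71% of all tested genes were called lower. The 7 listed fibroblast markers summed to 18.8 CPM to 35.5 CPM in WT and 10.1 CPM to 21.6 CPM in the knockout, with 1 of 4 tested called lower and Dcn, Lum and Postn at no more than 18 counts in any library. The 5 neural progenitor markers summed to 136 CPM to 176 CPM in WT and 97.2 CPM to 134 CPM in the knockout. Of these, 2 of 4 tested were called lower, Pax6 (log2 fold change -3.14) and Nes (-0.88), and Fabp7 was at 0 in every library. Tubb3, the most counted, averaged 62.2 CPM and 56.3 CPM in WT and knockout and was not called. Sox1 went the other way (0.42), also not called. The 5 endothelial markers summed to 123 CPM to 131 CPM in WT and 77.1 CPM to 106 CPM in the knockout, with 1 of 4 tested called lower and Emcn at 0 in every library. Most of the endothelial sum was Pecam1, the called gene, with means of 119 CPM (WT) and 79.8 CPM (knockout). Kdr and Cdh5 were lower but not called, with at most 30 and 14 counts in any library. Tek went the other way (log2 fold change 0.26), also not called. Whether other cell types were present, or had a part in the Jag1 result, was not tested.

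The promoter of Jag1 was searched for the core letters bound by TCF and LEF factors, the DNA-binding partners of beta-catenin, since the series concerns beta-catenin. RefSeq windows (GRCm38.p6) of 250 bases before to 50 bases after a start site were at hand for 8 of the 10 genes, without Hes1 and Hey1. The letters CTTTGA, or TCAAAG for the other strand, occurred in 16% of all 32851 windows. Jag1 was the only one of the 8 genes with a match, which lies within the 50 bases after its start site. The 30 bases around it, at chr2:137116479-137116508 on the minus strand, are shown with the match in capitals. A match is a description of letters and not a site.
Jag1: ggggggagcgccTCAAAGaagcgatcagaa

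Jag2 (ENSMUSG00000002799.6, chromosome 12, 112907819 to 112929776, minus strand), the other Jagged gene, had the highest level per kb among the ligands. It stood at 66.8, 74.2 and 70.0 CPM in WT and at 80.4, 63.3 and 67.6 CPM in the knockout, where libraries of both genotypes were interleaved. The genotype difference was 0.00 on the log2 scale with an interval from -0.22 to 0.22 (adjusted p 0.996). Per length, Jag2 held 68.0% (range 64.1% to 71.9%) of the summed ligand level in WT and 70.4% (range 69.0% to 71.4%) in the knockout. Jag1 held 13.3 ± 1.29% in WT and 9.15 ± 1.02% in the knockout, with no overlap between genotypes. The summed ligand level was 20.3 ± 2.24 CPM per kb in WT and 19.6 ± 2.82 CPM per kb in the knockout, a difference smaller than either spread.

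Dll1 (ENSMUSG00000014773.13, chromosome 17, 15367354 to 15375976, minus strand), a ligand known from neurogenesis and somite formation, varied more between libraries of a genotype than between genotypes. Its levels were 4.32, 11.5 and 5.40 CPM in WT A, B and C, and 10.8, 4.54 and 3.83 CPM in the knockout replicates. WT replicate B and knockout replicate A were high, and the other 4 libraries were low. The highest library was 2.67 times the lowest in WT and 2.83 times in the knockout. Over 3117 tested genes within a factor of 2 of its mean count, the median of this ratio was 1.34 in WT and 1.39 in the knockout, and Dll1 exceeded 99.1% and 98.3% of them. The log2 fold change between genotypes was -0.15 with an interval from -0.99 to 0.68 (adjusted p 0.857), and it ran from -0.75 when knockout A was left out to 0.39 when WT B was left out. It was also above 0 when knockout B (0.06) or knockout C (0.12) was left out.

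Dll3 (ENSMUSG00000003436.11, chromosome 7, 28293553 to 28302238, minus strand) encodes a divergent Delta-like protein that acts inside the cell rather than as an activating ligand at its surface. It was at 3.56, 4.55 and 6.5 CPM in WT and at 5.75, 5.15 and 6.56 CPM in the knockout, with overlapping ranges. Its log2 fold change was 0.26 with an interval from -0.28 to 0.80 (adjusted p 0.568). Dll4, another Delta-like ligand, had at most 6 counts in any library, which is not distinguished from 0 here.

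Rbpj (ENSMUSG00000039191.12, chromosome 5, 53555834 to 53657362, plus strand) is the DNA-binding protein through which all Notch receptors act, and it recruits corepressors when no Notch fragment is bound. It had the highest level per kb of the 10 genes, and its CPM was 332, 329 and 322 in WT and 355, 372 and 402 in the knockout. All knockout libraries lay above all WT libraries. With a log2 fold change of 0.20 (standard error 0.08), its adjusted p of 0.130 did not pass the threshold (unadjusted p 0.0279). Over all alternatives run, its adjusted p stayed above 0.05 and was nearest to it, at 0.0580, with knockout A left out. Groups that did not overlap were found for 4 of the 10 genes (Jag1 and Hey1 lower, Hes1 and Rbpj higher), against 30.7% of all tested genes (15.7% higher and 15% lower). An unadjusted p under 0.05 was found for 3 of 10, against 26.7% of all tested genes.

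RBPJ binds the letters TGGGAA, or TTCCCA read on the other strand. Either was present in 25.6% of all RefSeq windows, and among the 8 genes with a window Rbpj alone had a match. A match was held by 2 of the 10 windows of these 8 genes, which is not above the share of all windows. Both are Rbpj windows that overlap and share the same TTCCCA, so they are not separate. Hes1 and Hey1 had no window and were not searched. The 250 bases before the first listed start site of Rbpj, at chr5:53590096-53590345 on the plus strand, hold both forms, shown in capitals. They are printed because no other of the 8 genes held the letters of the pathway's own factor.
Rbpj: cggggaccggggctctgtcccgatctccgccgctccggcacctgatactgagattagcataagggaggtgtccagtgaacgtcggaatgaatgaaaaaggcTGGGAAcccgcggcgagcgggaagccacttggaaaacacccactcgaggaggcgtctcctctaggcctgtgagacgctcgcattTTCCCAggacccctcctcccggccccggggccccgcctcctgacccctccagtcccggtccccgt

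Hes1 and Hey1 are basic helix-loop-helix repressors and textbook targets of Notch. Both carry a short peptide near their end, WRPW in Hes1 and the variant YRPW in Hey1. That of Hes1 binds Groucho/TLE corepressors. The ends of the coding sequences in GENCODE M21 are shown from 4 codons before the peptide to the stop codon. The codons of the peptide are in capitals. In Hes1 it is the part that recruits the TLE corepressors listed further on, and Hey1 is shown for comparison. The peptide is followed by 2 further codons in Hes1, which has 282 codons, and by 7 in Hey1, which has 299.
Hes1: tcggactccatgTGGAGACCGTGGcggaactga
Hey1: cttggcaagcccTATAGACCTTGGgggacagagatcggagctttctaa

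Hes1 (ENSMUSG00000022528.8, chromosome 16, 30065340 to 30067796, plus strand) rose in the knockout. Its levels were 40.6, 38.5 and 46.2 CPM in WT A, B and C, and 47.9, 65.1 and 74.6 CPM in the knockout replicates. Every knockout library was above every WT library, but knockout A exceeded WT C only narrowly. The mean went from 41.8 ± 3.98 CPM to 62.5 ± 13.6 CPM (SD, n = 3 each), a 1.5-fold increase with a 95% interval from 1.22 to 1.85. In edgeR's test the log2 fold change was 0.58 (standard error 0.14, adjusted p 0.0121). Within the knockout the highest library was 1.56 times the lowest, a ratio above that of 96.0% of 4637 genes of like count.

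The call of Hes1 was lost in the same fits as that of Jag1. Over all genes, these fits called 1374 (without WT A), 1470 (WT B), 1661 (knockout B) and 1602 (knockout C), against 2307 with all 6 libraries. The fits that kept both calls, without WT C and without knockout A, called 1805 and 2784. Leaving out WT A gave an adjusted p of 0.0641, leaving out WT B 0.0806, knockout B 0.0564 and knockout C 0.0749, whereas leaving out knockout A gave 7.8e-05. The log2 fold change ranged from 0.45 (knockout C left out) to 0.74 (knockout A left out). Primitive endoderm markers were also higher in the knockout. All 6 of them (Gata6, Gata4, Sox17, Sox7, Foxa2 and Dab2) were called higher in the knockout by edgeR, against 7.6% of all tested genes. DESeq2 and limma-voom each called 5, DESeq2 without Dab2 and limma-voom without Foxa2. None of the 6 was at 0 in any library, but Foxa2 had 6, 6 and 4 counts in WT, which is not distinguished from 0 here. It passed the count filter through its knockout libraries alone (20, 12 and 32 counts). Their summed level was 27.9, 38.7 and 45.8 CPM in WT and 74.2, 92.1 and 145 CPM in the knockout. Gata4 and Sox7 lie on chromosome 14, where the median change of 400 well-counted genes was 0.56 on the log2 scale. Dab2 overlapped between genotypes, with knockout A at 19.7 CPM and WT B at 22.0 CPM. Knockout replicates A, B and C had the same order in Hes1 and in the summed endoderm markers, but WT replicates A and B had opposite orders. Whether primitive endoderm cells were present, or had a part in the Hes1 result, was not tested.

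Hey1 (ENSMUSG00000040289.8, chromosome 3, 8663359 to 8667256, minus strand) was at 3.60, 5.36 and 3.20 CPM in WT and at 2.87, 2.80 and 3.03 CPM in the knockout. The knockout libraries lay below the WT libraries and close to each other. The log2 fold change of -0.48 had an interval from -1.07 to 0.11 (adjusted p 0.294), so the difference was not called at this depth.

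**Figure D3:**
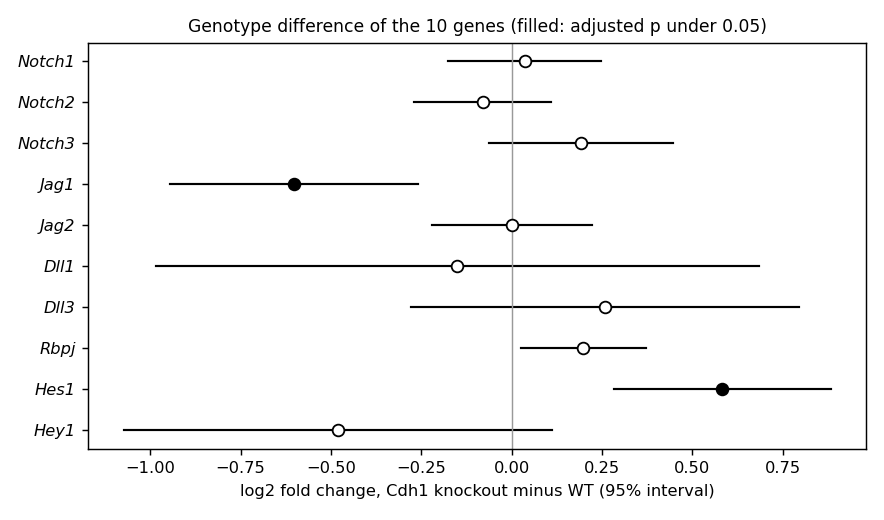
Log2 fold change (Cdh1 knockout minus WT) of the 10 Notch genes with its 95% interval, filled where the adjusted p was under 0.05. Jag1 at -0.60 and Hes1 at 0.58 are filled, and the intervals of Dll1, Dll3 and Hey1, whose group means are 2.90 CPM to 7.08 CPM, are the widest.

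**Figure D4:**
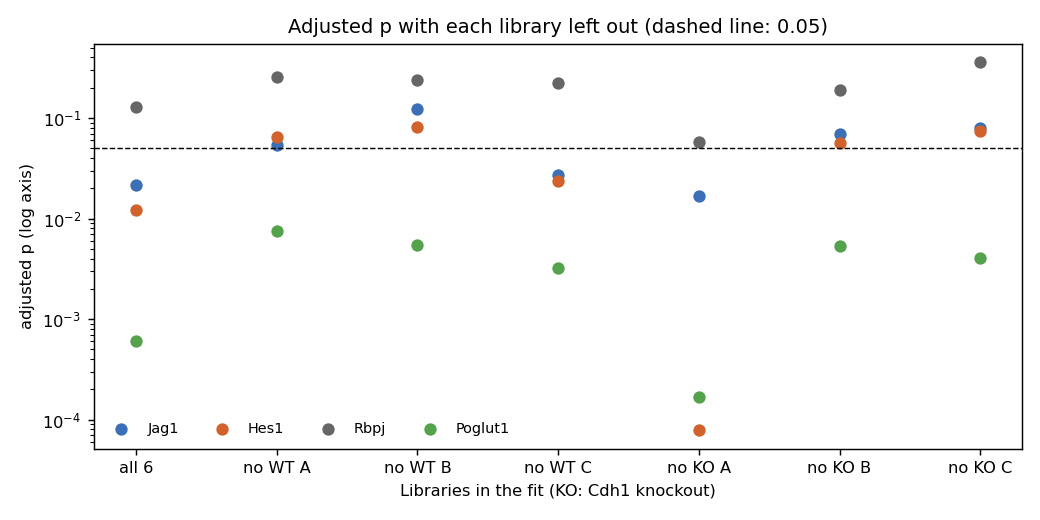
Adjusted p (log axis) from edgeR's quasi-likelihood test for Jag1, Hes1, Rbpj and the glycosyltransferase gene Poglut1 with all 6 libraries and with each library left out. Jag1 and Hes1 cross the dashed line at 0.05 in 4 of the 6 fits, Rbpj stays above it in all of them and Poglut1 stays below it in all of them.

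Per length, Rbpj, Hes1, Jag2 and Notch3 led the 10 genes in both genotypes. In WT the order was Rbpj at 47.2 ± 0.752, Hes1 at 28.5 ± 2.71, Jag2 at 13.8 ± 0.724, Notch3 at 11.9 ± 1.71, Notch2 at 7.15 ± 0.212, Notch1 at 7.11 ± 0.549, Jag1 at 2.7 ± 0.437, Dll1 at 1.98 ± 1.08, Dll3 at 1.86 ± 0.573 and Hey1 at 1.67 ± 0.473 CPM per kb (SD, n = 3). Neighbours whose ranges overlapped in WT were Jag2 with Notch3, Notch2 with Notch1, and each pair along Jag1, Dll1, Dll3 and Hey1. In the knockout Rbpj stood at 54.1 ± 3.44 and Hes1 at 42.6 ± 9.24 CPM per kb. Jag1, at 1.78 ± 0.0857 CPM per kb, came after Dll3 at 2.22 ± 0.269 and Dll1 at 1.79 ± 1.08, and Dll1 overlapped both neighbours. Among all tested genes, by the mean of the 6 libraries, Rbpj lay at the 92.4th percentile of level per length, Hes1 at the 88.4th and Hey1 at the 27.6th.

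The genes most like Jag1 over the 6 libraries were sought among 12847 genes averaging 50 counts or more, by the root mean square difference of centred log2 CPM. They were Gm5855, Slc25a27 and Rragb, with differences of 0.05, 0.05 and 0.06. Rragb averaged 32.1 CPM and 22.5 CPM in WT and knockout (log2 fold change -0.51, adjusted p 0.0199). Slc25a27, at 11.1 CPM and 7.38 CPM, and Gm5855, at 4.14 CPM and 2.79 CPM, had adjusted p-values of 0.0509 and 0.171. Such likeness describes these 6 libraries only.

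The rest of the pathway was read from lists of 59 other genes grouped by role, of which 53 were tested. Of these 3 rose, against 7.6% of all tested genes, and 1 fell, against 5.71%. The gene that fell, Maml2, passed the count filter through its WT libraries alone. DESeq2 and limma-voom called the same 4 genes of these lists. The median log2 fold change was 0.01. Of the called genes, Poglut1 and Furin act on the receptor in the secretory pathway, Aes is a short member of the TLE family and Maml2 is a coactivator.

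Poglut1, which adds O-glucose to the EGF repeats of Notch receptors, had the smallest adjusted p of the 4. It was at 91.0, 94.0 and 95.5 CPM in WT and at 129, 139 and 135 CPM in the knockout, with a wide gap between groups. Its log2 fold change was 0.52 (standard error 0.08, adjusted p 6.1e-04), and it remained called in all 6 fits that left out a library. The other 4 glycosylation genes, Pofut1 and the 3 fringe genes Lfng, Mfng and Rfng, were not called.

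Furin, the protease that makes the first cut in the receptor, was the called gene among 10 genes of receptor cleavage. It was at 40.0, 41.2 and 45.9 CPM in WT and at 56.1, 52.5 and 55.3 CPM in the knockout, without overlap. Its log2 fold change was 0.37 (adjusted p 0.0229), and its adjusted p was 0.12, 0.0897 and 0.0730 when WT A, WT B or knockout C was left out. The proteases Adam10 and Adam17 and the gamma-secretase subunits Ncstn, Aph1a, Aph1b and Aph1c were not called. Ncstn, the most counted of this list, averaged 75.2 CPM and 66.8 CPM in WT and knockout (log2 fold change -0.17, adjusted p 0.300). Copa on the opposite strand covers 6.72% of the Ncstn exon bases, and Gm44851 covers 2.42% of those of Furin. Ncstn lies on chromosome 1, where the median change of 637 well-counted genes was -0.30 on the log2 scale.

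The Mastermind genes encode the coactivators that the Notch fragment and RBPJ recruit. Maml2 was at 1.71, 1.01 and 1.80 CPM in WT and had 2, 4 and 6 counts in knockout replicates A, B and C. These knockout counts are at or under 6, the floor below which a level was not distinguished from 0. Against that floor, taken as a mean over the knockout libraries, Maml2 was at least 5.04-fold lower in the knockout (adjusted p 0.00227 in edgeR's test). It passed the count filter through its WT libraries alone, so this p-value is not separate support for the fall. Maml1, with means of 63.1 ± 3.38 CPM and 52.4 ± 7.01 CPM in WT and knockout (adjusted p 0.127), and Maml3, at 2.90 ± 0.414 CPM and 1.78 ± 0.257 CPM (adjusted p 0.158), were not called. Ep300, the most counted coactivator, was at 256 CPM and 229 CPM (log2 fold change -0.16, adjusted p 0.292).

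Of 12 genes listed as corepressors, Aes (also called Tle5), a short family member listed with them, was the one called. It was at 198, 202 and 221 CPM in WT and at 271, 264 and 247 CPM in the knockout, without overlap (log2 fold change 0.34, adjusted p 0.0154). Leaving out WT A, WT B or knockout B gave an adjusted p of 0.0924, 0.0742 and 0.0502. The full-length family members Tle1, Tle2, Tle3 and Tle4 were not called, and the most counted gene of the list, Hdac1, was at 347 CPM and 319 CPM (log2 fold change -0.12, adjusted p 0.456).

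None of the 9 receptor turnover genes and none of the 4 ligand ubiquitin ligase genes was called by edgeR, DESeq2 or limma-voom. By edgeR, 13.3% of all tested genes were called. At an unadjusted p under 0.05 in edgeR's test these counts were 2 and 0, against 26.7% of all tested genes. Itch averaged 106 CPM and 99.4 CPM in WT and knockout (log2 fold change -0.10, adjusted p 0.598). The mean of Mib1, the ligase that activates ligands by endocytosis, was 155 CPM and 180 CPM (log2 fold change 0.21, adjusted p 0.225). Nrarp, another direct Notch target that limits the pathway, was at 1.92 ± 0.494 CPM and 2.04 ± 0.999 CPM (adjusted p 0.927). Exons of Gm38287 on the opposite strand cover 79.4% of its exon bases, so most of these counts may not be from Nrarp. Notch4 was at 29.7 ± 7.08 CPM and 28.3 ± 6.83 CPM (log2 fold change -0.07, adjusted p 0.864).

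Of 8 further Hes and Hey genes, 3 were tested and none was called by edgeR, DESeq2 or limma-voom, or at an unadjusted p under 0.05. Over all tested genes, edgeR called 13.3%, and 26.7% had an unadjusted p under 0.05. Hes6, which counteracts Hes1, was the most counted. It averaged 15.4 ± 1.27 CPM and 17.6 ± 2.03 CPM in WT and knockout (log2 fold change 0.19, adjusted p 0.424), and it lies on chromosome 1. Hes5, a Notch target of neural progenitors, had 10, 8 and 10 counts in WT and 4, 3 and 2 counts in the knockout, too few to be tested, and Gm20421 on the opposite strand covers 34% of its exon bases. Hes7 had at most 18 counts in any library. Hes3, Helt and Heyl had at most 4 counts in any library.

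**Figure D5:**
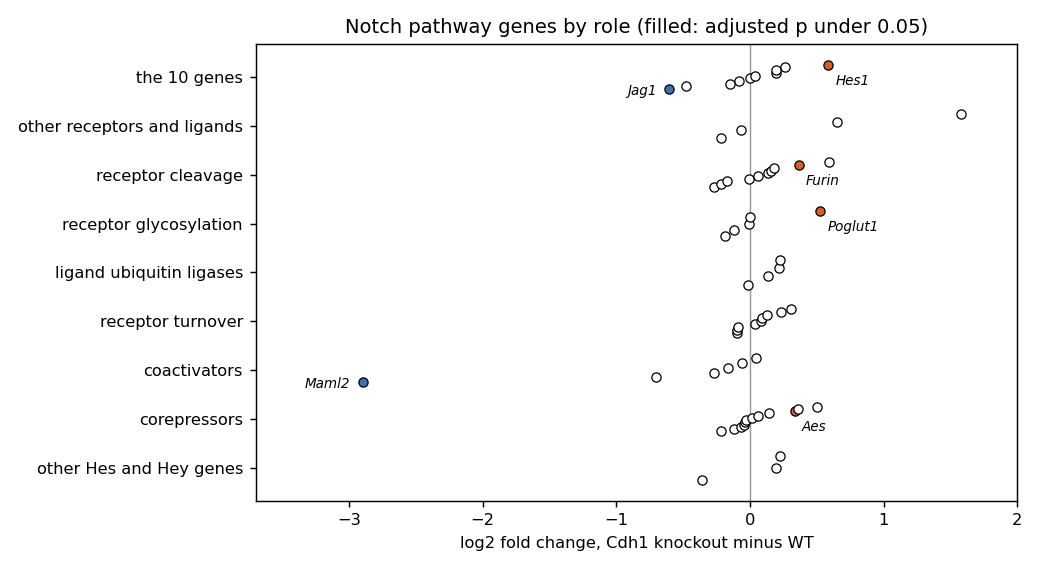
Log2 fold change (Cdh1 knockout minus WT) of the tested Notch pathway genes other than proneural factors, a row for each role, with called genes filled (orange higher, blue lower) and named. Jag1, Hes1, Furin, Poglut1, Aes and Maml2 are filled, and Maml2, whose knockout counts are at the floor, lies farthest from 0.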

How the data were processed

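Total RNA of 6 libraries was sequenced from strand-specific libraries, per the labels' protocols. The authors deposited raw counts per gene, not normalized, with exon coordinates and length. The submitters' processing notes name cutadapt 2.10, STAR 2.7.5b, featureCounts 2.0.1 and GRCm38. Annotation, strand setting and the counting of mates are not given in the sources used here. Of 55401 identifiers, 55141 received a symbol from GENCODE M21. Counts from 1 to 10 were even in 78.1% to 83.1% of cases, so the floor was set to 6 counts (3 read pairs if mates were counted separately). Such a floor covers counting error only.

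Genes were filtered by filterByExpr (smallest count 10, smallest total 15), scaled by TMM and tested with edgeR 4.0.16 in R 4.3.3, with genotype as the only term and Benjamini-Hochberg adjustment over 17325 genes. Calls required an adjusted p below 0.05. Standard errors and 95% intervals come from the F statistic. Levels per kb use the deposited exon length of all isoforms together. The procedure was tested on simulated data.

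The members and lists were chosen with earlier results of these data known. Named genes are the 10 members, Cdh1, up to 4 called genes per pathway list and its most counted gene, and the 3 genes most like the called member with the largest change. Other names are given for context, and some list genes are not reported here. Alternatives used other scalings, filters, thresholds, DESeq2 1.42.0, limma-voom (limma 3.58.1), glmTreat at 1.5-fold, halved counts, the replicate letter as a block, and each library left out. Removal of the medians of chromosomes 1 and 14 was added after the data were seen.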

Additional observations from a re-analysis of the deposited data

How the results depend on the processing

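Jag1 and Hes1 kept their direction under every alternative run. Both were called under all alternatives that used all 6 libraries at the same threshold, except glmTreat at 1.5-fold. At an adjusted p under 0.01 and under glmTreat, 0 of the 10 genes were called higher and 0 lower, with the log2 fold changes of Jag1 (-0.60) and Hes1 (0.58) as before, and 1 and 0 other pathway genes were called higher, in that order. With each library left out, 0 to 1 of the 10 genes were called higher and 0 to 1 lower, and 1 to 5 other pathway genes were called higher and 1 to 2 lower. Without knockout replicate A, 5 other pathway genes were higher and 2 lower. Requiring a mean of at least 50 counts left 0 other pathway genes lower, since Maml2 was then not tested. The log2 fold changes ran from -0.68 to -0.46 for Jag1 and from 0.45 to 0.74 for Hes1 with a library left out, from -0.75 to 0.39 for Dll1, from -0.023 to 0.11 for Notch1 and from -0.10 to 0.085 for Jag2. Jag2, at 0.00, took a negative sign of -0.034 with upper quartile scaling, -0.032 with library totals, -0.017 with at least 50 counts, -0.0083 with halved counts, -0.0078 with limma-voom and -0.0038 with the replicate block. Blocked by the replicate letter, 2686 genes were called in place of 2307. Correlations of deviations from the group means between libraries of the same letter were 0.16, -0.15 and 0.40 for A, B and C. Not every library correlated best with its own letter. With 3 libraries per genotype, these correlations cannot settle whether the letters pair the libraries. Over all genes 1242 were called at an adjusted p under 0.01, 355 with glmTreat, 1374 without WT replicate A and 1470 without WT replicate B. Dll1, Dll3 and Hey1, with group means of 2.90 CPM to 7.08 CPM, had intervals that include changes of 1.5-fold, which these libraries could not resolve.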

Other observations

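Proneural transcription factors, which Hes repressors hold in check in neural progenitors, were scarcely counted in either genotype. Of 6 listed genes, Neurod1 alone was tested, with means of 3.47 ± 1.46 CPM and 4.07 ± 0.895 CPM in WT and Cdh1 knockout (SD, n = 3 each, log2 fold change 0.23, adjusted p 0.701 in edgeR's test). Neurog1 had 18 counts in WT replicate C and at most 6 in the other libraries.

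The genes most like Hes1 and Dll1 over the 6 libraries were looked up after their values were seen, by the measure used for Jag1. For Hes1 they were Hunk, Ociad2 and Dab2ip, with differences of 0.05, 0.06 and 0.06 in centred log2 CPM. Hunk, a kinase gene, was at 39.9, 39.2 and 43.8 CPM in WT and at 49.6, 65.6 and 69.9 CPM in the knockout. Its log2 fold change was 0.59 (adjusted p 0.00494 in edgeR's test), and it lies on chromosome 16 as Hes1 does. For Dll1 the nearest genes, Zfp385c, Gm15247 and Gm37062, were less alike, with differences of 0.25, 0.26 and 0.29. Gm15247 on the X chromosome was at 19.5, 42.5 and 18.2 CPM in WT and at 49.3, 23.9 and 22.1 CPM in the knockout, so it shared the high values in WT replicate B and knockout replicate A.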
